A study of Mus musculus with 4 samples.

Results

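The SLAM family receptors Slamf1, Slamf6, Slamf7, Cd244a, Ly9 and Cd84, the ligand Cd48 and the adaptor gene Sh2d1a, which encodes SAP, were examined in mouse iNKT cells. A probe set was taken when the platform annotation paired it with 1 gene symbol and that symbol was one of these 8 genes. This gave 9 probe sets of 41345 on the array, 1 for each gene except Slamf6, which had 2. All 8 genes lay above the level below which genes were set aside as dim, so they are 8 of 13602 genes tested.

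SLAM family receptors are surface proteins of blood cells, and most of them bind the same receptor on a neighbouring cell. Their cytoplasmic tails carry tyrosine motifs that recruit SAP, a small SH2 domain protein, and SAP in turn brings in the kinase Fyn. In the thymus, iNKT cells are selected on CD1d carried by other thymocytes, and SLAM receptor contacts between thymocytes together with SAP are required for the lineage to form. When SAP is absent, the same tails recruit phosphatases instead. Slamf7 and Cd244a are also known as receptors of NK cells and cytotoxic T cells.

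The study compared iNKT cells, T cells with a semi-invariant T cell receptor that recognise lipids on CD1d, of CD4-Vα14Tg mice with those of wild-type (WT) mice, on 2 arrays per genotype. In CD4-Vα14Tg mice the CD4 promoter drives a transgene for the Vα14 receptor α chain, and WT mice are the labelled controls. The labels name no organ, strain, age, sex or sorting gate, and do not say whether the 2 arrays of a genotype came from separate mice, so p-values measure the spread between these arrays, which may be technical. All values are log2 expression values made with RMA, each pair of values gives replicates 1 and 2 of a genotype, and every difference is CD4-Vα14Tg minus WT.

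RNA of T cells was present on all 4 arrays, and none of 6 tested iNKT and T cell markers, among them Cd3e and Zbtb16 (PLZF), passed limma's test (0 had an unadjusted p under 0.05). The summed linear level of these markers was 14222 and 15079 in CD4-Vα14Tg and 14668 and 16297 in WT. The list joins markers of iNKT cells with markers of T cells in general, so it cannot show the share of iNKT cells. Of 26 measured markers of B cells, myeloid and dendritic cells, progenitors and mast cells, hepatocytes, erythroid cells and platelets, 15 lay below the dim filter, and the highest value of any was 7.19, in Cd68. None of the 11 tested passed limma's test. An unadjusted p under 0.05 was reached by 4 of the 11, next to 11.7% of all genes. Among these, Cd79b was higher (log2 difference 0.48), and Cd22 (-0.64), Zbtb46 (-0.36) and Cd68 (-0.32) were lower. The summed linear level of all 26 was 761 to 764 in CD4-Vα14Tg and 751 to 804 in WT. As 15 of the 26 lay below the dim filter, this sum is partly array background and cannot show whether few such cells were present.

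The 3 members with the widest separation between genotypes were Slamf7 and Cd244a, both lower in CD4-Vα14Tg cells, and Slamf6, which was higher. Their RefSeq promoter windows on GRCm38.p6, 250 bases before to 50 after the transcription start, are shown because these genes carry the differences that follow. Capitals mark E-boxes (CANNTG), the site bound by E proteins. The windows are chr1:171648950-171649249 on the minus strand for Slamf7, chr1:171558943-171559242 on the plus strand for Cd244a and chr1:171917212-171917511 on the plus strand for Slamf6.
Slamf7: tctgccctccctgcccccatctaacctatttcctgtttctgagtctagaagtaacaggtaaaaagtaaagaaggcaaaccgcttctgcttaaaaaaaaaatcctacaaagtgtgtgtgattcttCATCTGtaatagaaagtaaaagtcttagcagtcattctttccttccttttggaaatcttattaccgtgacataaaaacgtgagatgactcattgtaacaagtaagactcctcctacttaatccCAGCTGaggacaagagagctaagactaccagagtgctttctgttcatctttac
Cd244a: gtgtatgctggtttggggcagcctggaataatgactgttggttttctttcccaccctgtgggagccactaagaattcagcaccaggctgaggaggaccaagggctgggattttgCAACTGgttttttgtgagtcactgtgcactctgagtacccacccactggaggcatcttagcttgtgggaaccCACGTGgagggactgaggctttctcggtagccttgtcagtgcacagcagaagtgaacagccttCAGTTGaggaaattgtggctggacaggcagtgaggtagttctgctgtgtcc
Slamf6: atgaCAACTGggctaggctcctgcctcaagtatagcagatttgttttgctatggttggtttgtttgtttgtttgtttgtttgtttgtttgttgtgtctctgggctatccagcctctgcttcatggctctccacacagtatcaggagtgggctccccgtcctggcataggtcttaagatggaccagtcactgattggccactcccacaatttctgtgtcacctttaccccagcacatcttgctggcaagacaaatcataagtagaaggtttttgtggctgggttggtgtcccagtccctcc
E-boxes numbered 2 in Slamf7, 3 in Cd244a and 1 in Slamf6, against a mean of 1.39 over 32851 promoter windows of the same length, of which 72.3% held at least 1. The windows of the other matched members held 2 (Slamf1), 1 (Cd84) and 1 (Cd48). Both strands were searched, and CANNTG reads the same on either. The E-box of Cd244a at 64 bases before the start had the letters CACGTG. A T-box half-site (GGTGTGA), a Runx site (TGTGGT) and the core of an Egr site (GCGTGGG) were also searched on both strands, and their letters were not found in the windows of Slamf7, Cd244a or Slamf6. Those 3 motifs occur in 3.98%, 16.8% and 5.04% of all windows. In the windows of the other members, Cd48 held a T-box half-site and a Runx site, which overlap, and Cd84 held 1 Runx site, while Slamf1 held none of the 3. Ly9 and Sh2d1a were not matched.

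Across the family, 2 of 8 members were called lower in CD4-Vα14Tg cells and 0 were called higher, where a call is a limma adjusted p under 0.05 over all genes tested. Over the 13602 genes, 1.34% were called lower, 0.61% higher and 1.95% in either direction. At an unadjusted p under 0.05 there were 4 members (Slamf7, Cd244a, Slamf6 and Cd48), and this threshold was met by 11.7% of all genes. The median difference of the 8 was -0.18 on the log2 scale beside -0.022 over all genes. The differences ran from -1.95 in Slamf7 to 0.73 in Slamf6, so the members did not shift as a block. The arrays of the genotypes did not overlap for 5 of the 8, with 4 lower and 1 higher. Over all genes that was the case for 39.1%, with 23.4% lower and 15.7% higher. With 2 arrays against 2, an exact two-sided permutation test of a single gene cannot go below p = 0.333, so the calls rest on the spread that limma shares across genes.

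**Figure D1:**
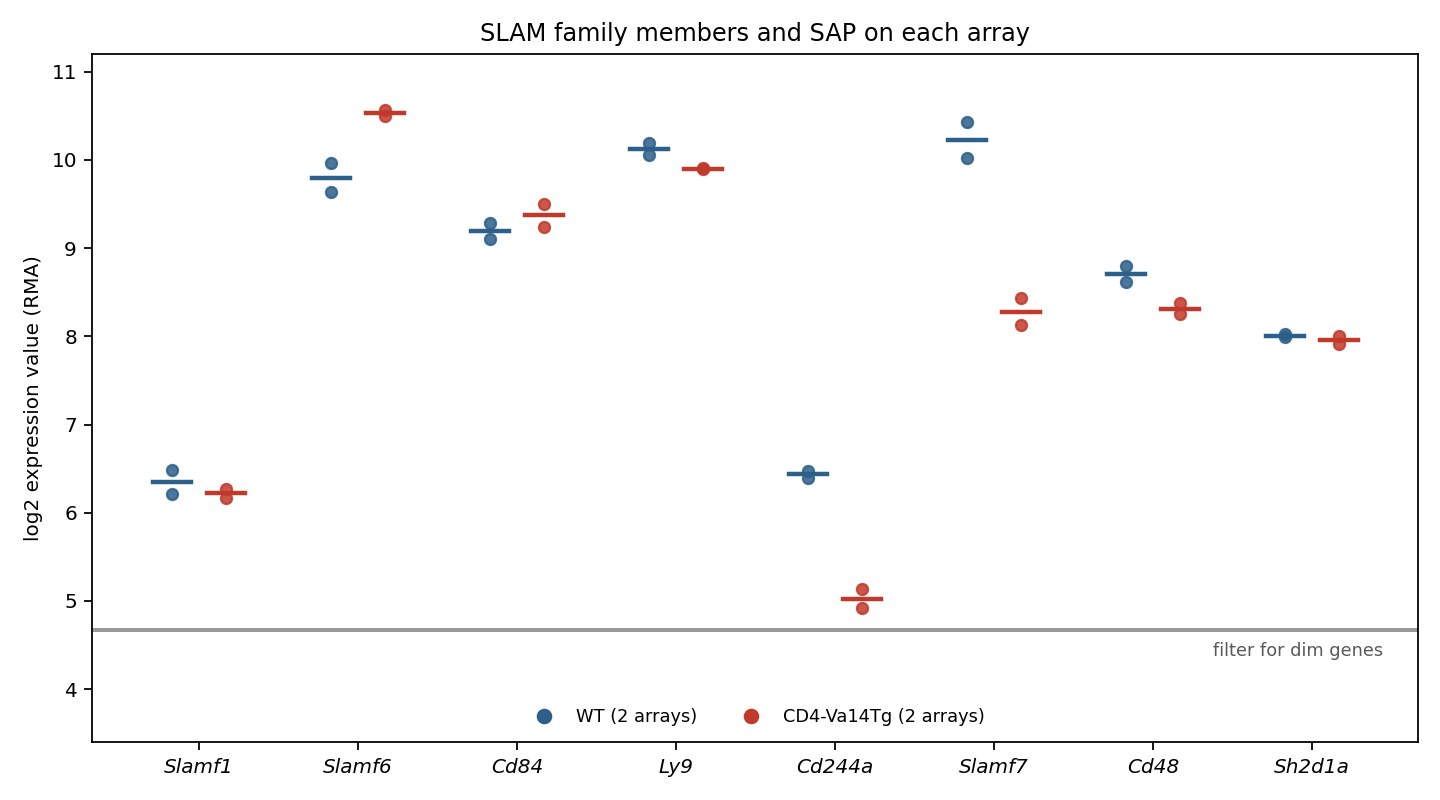
Log2 expression values (vertical axis) of the 8 members on each of the 4 arrays, WT in blue and CD4-Vα14Tg in red, with horizontal bars for group means of 2 arrays and a grey line at the dim filter. Slamf7 and Cd244a sit clearly lower in red, Slamf6 sits higher in red, and the points of Sh2d1a nearly coincide; heights of different genes cannot be compared, since each has its own probes.

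Slamf7, also called CRACC or CD319, is a receptor that binds itself on neighbouring cells and is best known from NK cells, where it works with the adaptor EAT-2. It read 8.13 and 8.43 on the CD4-Vα14Tg arrays and 10.02 and 10.43 on the WT arrays. Both CD4-Vα14Tg arrays lay at least 1.59 below the lower WT array. The fall was 3.85-fold (log2 difference -1.95, 95% interval -2.36 to -1.53, limma adjusted p = 0.00326), and only 18 of the genes tested had a more negative difference. The difference stayed between -2.15 and -1.74 over 13 other settings, and all 13 kept the call.

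Cd244a, or 2B4, is the receptor for CD48 on NK cells and memory-like T cells. Its values were 5.13 and 4.92 in CD4-Vα14Tg cells and 6.40 and 6.47 in WT cells. The CD4-Vα14Tg values lay just above the dim filter, at 4.65 to 4.69, so the fall is measured against a level near background and may be understated. The groups were 1.26 apart at their closest. The fall was 2.66-fold (log2 difference -1.41, 95% interval -1.71 to -1.11, limma adjusted p = 0.00326), and 41 genes had a more negative difference. It ranged from -1.52 to -1.30 over 13 other settings, with the call kept in each.

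The falls of Slamf7 and Cd244a went with a fall in NK and NKT1 cell markers. Of the 10 genes on that list, 8 lay above the dim filter on all 4 arrays. These 8 were called lower, next to 1.34% of all genes tested. The list was chosen with earlier results of these data known. The summed linear level of the 10 was 2379 and 2621 in CD4-Vα14Tg and 6921 and 7421 in WT. Eomes, a transcription factor of NK cells, lay below the dim filter on all 4 arrays (4.04 to 4.40), and Ncr1, the NK cell receptor NKp46, read 4.19 and 4.20 in CD4-Vα14Tg, below that filter, against 5.05 and 5.14 in WT. Ncr1 was tested only through its WT arrays, and its call is not counted here. In RNA of a whole cell sample, fewer cells of a type and less RNA per cell cannot be told apart, and the part of this list in the falls of Slamf7 and Cd244a was not tested.

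Slamf6, also called Ly108, is a self-binding receptor on double-positive thymocytes and T cells and is one of the pair, with Slamf1, that is tied to iNKT selection. The brighter of its probe sets read 10.57 and 10.49 in CD4-Vα14Tg cells and 9.63 and 9.97 in WT cells. The groups did not overlap, with a gap of 0.53, and most of the spread lay between the WT arrays. The log2 difference was 0.73, or 1.66-fold (95% interval 0.39 to 1.08), and it narrowly missed limma's threshold (adjusted p = 0.0603), and 128 genes had a more positive difference.

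The other Slamf6 probe set was dimmer and gave the same direction: 6.06 and 6.26 in CD4-Vα14Tg cells against 5.39 and 5.22 in WT cells. Its log2 difference was 0.86 (95% interval 0.54 to 1.17). When all 14351 probe sets past the dim filter were tested one by one, the dimmer probe set had a limma adjusted p of 0.0200 and the brighter one 0.0493. Averaging the pair gave 0.79 (limma adjusted p = 0.0190). The test of Slamf6 therefore sits at the threshold. It was passed under 7 of 9 other ways of filtering, summarising, scaling or fitting the 4 arrays, and under 0 of 4 fits with 1 array left out, where the adjusted p ran from 0.0534 to 0.203. The difference itself moved from 0.57 with the first WT array left out to 0.90 with the second left out.

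Of the naive T cell markers, 3 of 4 tested, Ccr7, Lef1 and Igfbp4, were called higher, next to 0.61% of all genes tested. As with the NK list, these markers were chosen with earlier results of these data known. Cd8b1 did not pass (log2 difference -0.085, limma adjusted p = 0.929). The summed linear level of the 5 measured markers was 3544 and 3456 in CD4-Vα14Tg and 1457 and 1573 in WT, while Cd8a lay below the dim filter on all 4 arrays. Their part in the values of Slamf6 was not tested.

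**Figure D2:**
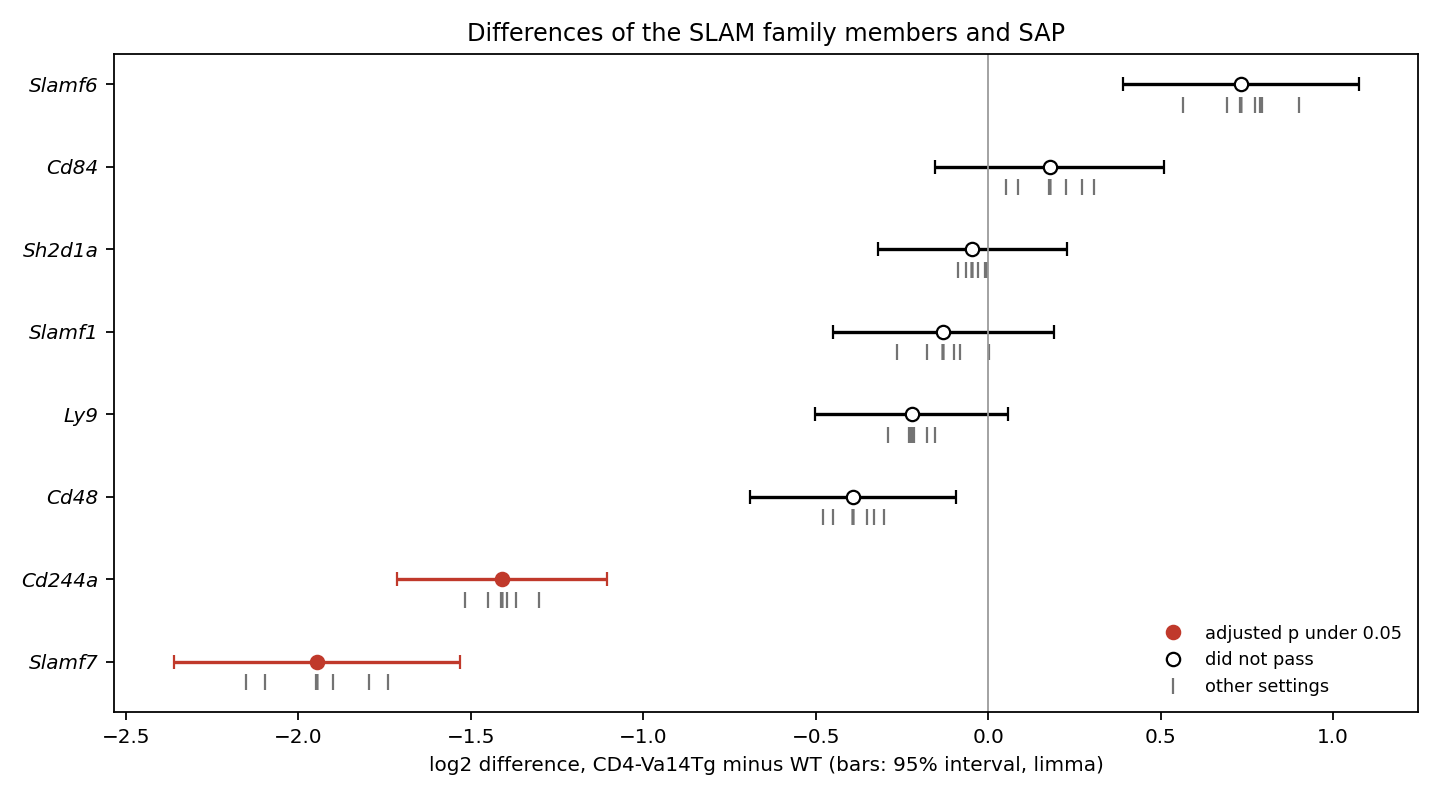
Log2 difference of each member, CD4-Vα14Tg minus WT (horizontal axis), as a point with its 95% limma interval, filled red where the adjusted p was under 0.05; grey ticks give the same difference under other settings, arrays left out included. Slamf7 (-1.95) and Cd244a (-1.41) lie far to the left, Slamf6 (0.73) lies to the right with an interval above 0, and the intervals of Cd84, Sh2d1a, Slamf1 and Ly9 span 0.

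Slamf1, or CD150, the self-binding receptor that gave the family its name, read 6.27 and 6.17 in CD4-Vα14Tg cells and 6.22 and 6.48 in WT cells. The groups overlapped. Its log2 difference of -0.13 did not pass (95% interval -0.45 to 0.19, limma adjusted p = 0.848) and was 0.0035 without WT replicate 2. The partner of Slamf6 in iNKT selection thus showed no call in either direction. Its interval ended below the difference measured in Slamf6, but it reflects only the spread between these arrays. Whether the responses of Slamf1 and Slamf6 differ from each other was not tested.

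Cd84, a self-binding receptor of T and B cells and platelets, read 9.24 and 9.50 in CD4-Vα14Tg cells and 9.10 and 9.29 in WT cells. Its groups overlapped, and the log2 difference was 0.18 (95% interval -0.15 to 0.51, limma adjusted p = 0.759). It moved from 0.051 without CD4-Vα14Tg replicate 2 to 0.31 without CD4-Vα14Tg replicate 1, and was 0.086 when WT replicate 1 was the one omitted and 0.27 for WT replicate 2. Ly9, or CD229, another self-binding receptor of lymphocytes, read 9.89 and 9.91 in CD4-Vα14Tg cells and 10.06 and 10.19 in WT cells. Its CD4-Vα14Tg arrays agreed within 0.016 and lay below both WT arrays, yet the log2 difference of -0.22 did not pass (95% interval -0.50 to 0.06, limma adjusted p = 0.580).

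Cd48, the lipid-anchored ligand of Cd244a and of CD2, is carried by nearly all blood cells. It read 8.26 and 8.37 in CD4-Vα14Tg cells and 8.62 and 8.79 in WT cells. The groups did not overlap, with a gap of 0.24, and the log2 difference of -0.39 had an interval below 0 (-0.69 to -0.09). It did not pass after adjustment (limma adjusted p = 0.249), nor under any of 13 other settings (0.112 to 0.700). Receptor and ligand of the Cd244a and Cd48 pair thus both read lower, the receptor by a called 2.66-fold and the ligand by 1.31-fold without a call.

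Sh2d1a, the gene of SAP, had the smallest difference of the 8 members. It read 8.004 and 7.918 in CD4-Vα14Tg cells and 8.024 and 7.989 in WT cells, and the groups overlapped. The log2 difference was -0.046 (95% interval -0.32 to 0.23, limma adjusted p = 0.963). The interval ends at a 1.25-fold fall and a 1.17-fold rise, and it reflects only the spread between these arrays. Over 13 other settings the difference stayed between -0.089 and -0.0025.

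The adaptor genes related to SAP were dim. Sh2d1b1, which encodes EAT-2, read 3.86 and 4.20 in CD4-Vα14Tg cells and 4.10 and 4.19 in WT cells, and Sh2d1b2, which encodes ERT, read 4.62 and 4.44 against 4.56 and 4.76. Both were set aside by the dim filter, and their arrays overlapped. Fyn, the kinase that SAP recruits, read 9.46 and 9.47 in CD4-Vα14Tg cells and 9.37 and 9.40 in WT cells. Its log2 difference was 0.083 (95% interval -0.19 to 0.35, limma adjusted p = 0.907).

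The rest of the pathway was followed with a list of 33 genes for family receptors and ligands, SAP relatives, kinases, phosphatases, downstream effectors and regulators tied to SLAM signals in iNKT cells. Cd1d1, which presents lipids and is not a SLAM family gene, was listed with the family receptors and ligands. Of the 33 genes, 30 were measured and 27 tested. None passed limma's test in either direction, and 3 had an unadjusted p under 0.05, next to 11.7% of all genes. The median difference was -0.066, with 11 genes positive and 16 negative. All 4 phosphatases were negative without passing, where 7604 of all 13602 genes tested were negative. Their differences ran from -0.066 in Ptprc to -0.40 in Ptpn6, the phosphatase SHP-1 (limma adjusted p = 0.236). The 3 tested kinases, Fyn, Csk and Prkcq, had differences between 0.028 and 0.083.

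The 3 pathway genes with an unadjusted p under 0.05 were Ptpn6, Malt1 and Cd1d1, named here for that value. Malt1, a scaffold and protease between antigen receptors and NF-κB, read 9.27 and 8.81 in CD4-Vα14Tg cells and 9.72 and 9.81 in WT cells. Its log2 difference was -0.72 (limma adjusted p = 0.103), and it passed without CD4-Vα14Tg replicate 1, at -0.95 (limma adjusted p = 0.0424). It did not pass with any other array left out, where it ran from -0.77 to -0.49 (limma adjusted p from 0.195 to 0.306). Cd1d1, the molecule that presents lipids to iNKT cells, read 6.05 and 5.72 in CD4-Vα14Tg cells against 5.37 and 5.33 in WT cells, a log2 difference of 0.54 (limma adjusted p = 0.150). Cd2, the other receptor for CD48, had a log2 difference of 0.25 (limma adjusted p = 0.614). Slamf8 had -0.005, and Slamf9 lay below the dim filter.

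**Figure D3:**
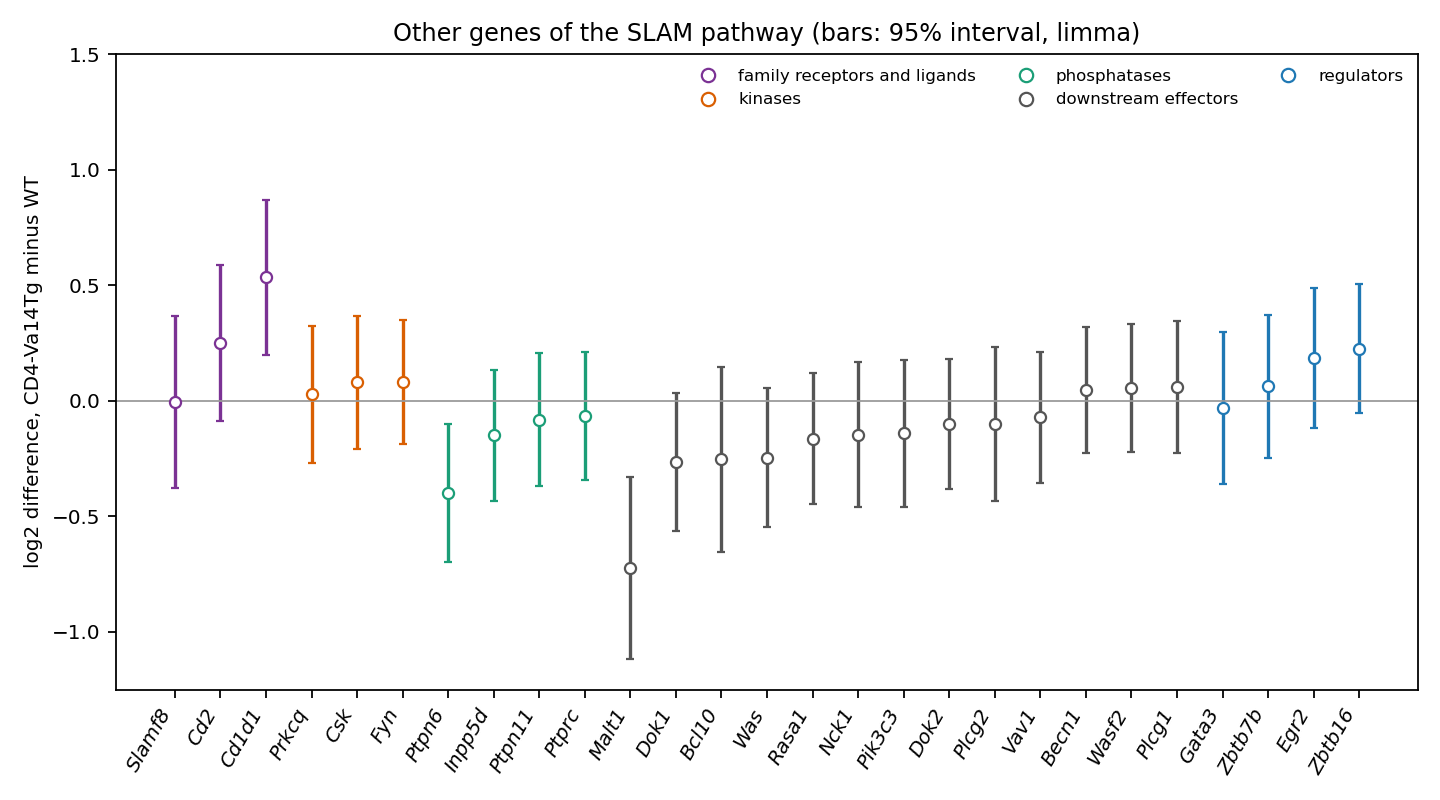
Log2 differences, CD4-Vα14Tg minus WT (vertical axis), of the 27 tested pathway genes outside the 8 members, coloured by role, with 95% limma intervals. No gene passed limma's test; Malt1 (-0.72) and Cd1d1 (0.54) stand farthest from 0.

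The receptor and ligand genes of the family form a cluster on mouse chromosome 1, in the order Cd244a, Ly9, Slamf7, Cd48, Slamf1, Cd84 and Slamf6, while Sh2d1a lies on the X chromosome. Along that order the called falls, in Cd244a and Slamf7, were separated by Ly9, which did not pass. Cd84 and Slamf6, at the opposite end, had positive differences, neither of which was called, and the arrays of Cd84 overlapped. RefSeq lists 8 other genes between the outermost members, none of them analysed here. With 10 genes on either side, 9 neighbours were tested, and their median difference was -0.018. Of the 9, 1 was called, next to 1.95% of all genes tested in either direction.

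The called neighbour was Vangl2, a planar cell polarity gene, which is the next gene after Slamf6. It read 6.09 and 5.67 in CD4-Vα14Tg cells and 5.03 and 5.01 in WT cells, so the groups did not overlap. The WT values lay close to the dim filter, at 4.65 to 4.69, so the difference is measured against a level near background. The rise was 1.82-fold (log2 difference 0.86, 95% interval 0.49 to 1.23, limma adjusted p = 0.0465). The call was lost when CD4-Vα14Tg replicate 1 was left out, and likewise with WT replicate 1 or WT replicate 2 left out (limma adjusted p from 0.121 to 0.150). It was also lost with no dim filter (limma adjusted p = 0.0658) and with quantile normalization repeated (limma adjusted p = 0.0556), while the difference stayed between 0.66 and 1.07. At the other end, the nearest tested neighbour of Cd244a, the RNA export factor gene Alyref2, differed by -0.26 on the log2 scale without a call (limma adjusted p = 0.660).

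**Figure D4:**
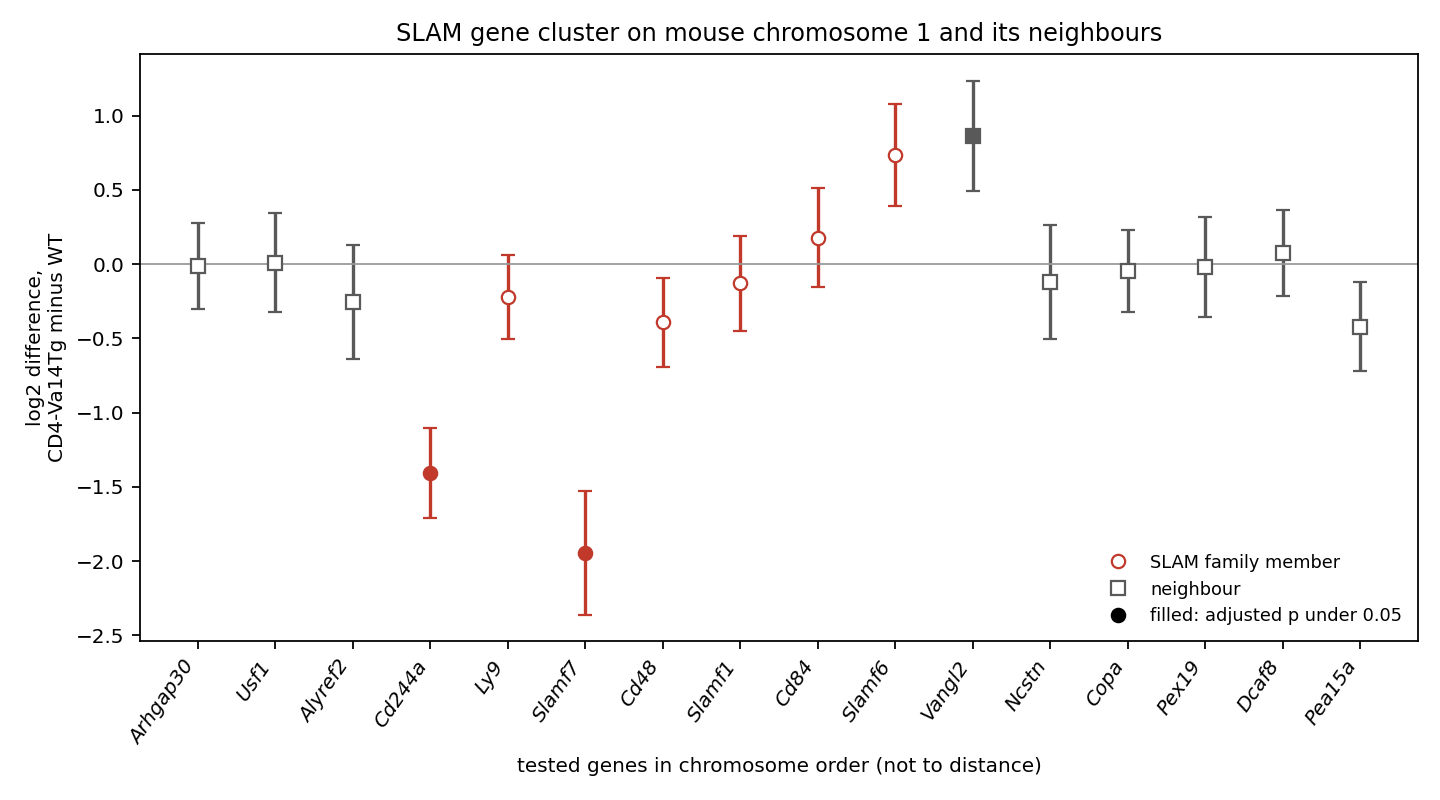
Log2 differences, CD4-Vα14Tg minus WT (vertical axis), of the tested genes of the SLAM cluster (red circles) and its neighbours (grey squares) in chromosome order (horizontal axis, equal steps), with 95% limma intervals and filled symbols where the adjusted p was under 0.05. Cd244a and Slamf7 fall well below 0, Slamf6 and its neighbour Vangl2 (0.86, filled) lie above it, and the other neighbours lie between -0.42 and 0.08.

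For Slamf7, Cd244a and Slamf6, the tested genes with the nearest pattern were found from the Euclidean distance between mean-centred log2 profiles over the 4 arrays, among 13601 other genes. Nearest to Slamf7 were Samd3 (distance 0.044), Il12rb2, the interleukin-12 receptor β2 chain (0.116), and Itga1, the collagen-binding integrin α1 (0.124), with log2 differences of -1.93, -1.84 and -1.99. Nearest to Cd244a were Pik3ap1, the adaptor BCAP (0.088), Ahr, the aryl hydrocarbon receptor (0.109), and Kcnk5, a potassium channel (0.111), with differences of -1.35, -1.50 and -1.34. All 6 of these genes were called lower, which follows from choosing them for their likeness to called members. Nearest to Slamf6 were Tmem50b (0.068), P2rx7, an ATP-gated channel (0.103), and Cnn3, a calponin (0.106), with differences of 0.70, 0.70 and 0.79 (limma adjusted p = 0.0583, 0.0497 and 0.0361). With 4 arrays in 2 groups such a likeness is a description alone.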

How the data were processed

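Total RNA of iNKT cells was hybridised on 4 Affymetrix whole-transcript arrays, 2 per genotype, and per the labels' protocols it was extracted from frozen tissue and labelled as biotinylated cRNA. The deposited values are log2 expression values, 1 per probe set and array, made with RMA and Affymetrix Power Tools per the submitters' processing notes; their versions and the genome build: not given in the sources used here. That the scale is log2 follows from the values (2.03 to 13.8, array medians 5.04 to 5.07). RMA evens out array distributions, so these values cannot show a change in RNA amount per cell, and it compresses differences near background. The number of arrays limits the precision; the median SD within a genotype was 0.10 in CD4-Vα14Tg and 0.098 in WT.

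Of the probe sets, 23521 had 1 gene symbol in the platform annotation, 1814 had several and 16010 had none there. Symbols were updated by Entrez number through RefSeq (GRCm38.p6), where 21994 of 22180 genes matched. The brightest probe set of a gene was kept, and a gene was tested when it reached the 40th percentile of named probe sets on at least 2 arrays. The test was limma's moderated linear model (limma 3.58.1, R 4.3.3, two-sided, Benjamini-Hochberg over 13602 genes, threshold 0.05), checked on simulated data. That simulation drew independent noise from limma's own variance model, so it checked the code and not the calls made here. Each adjusted p is from limma. Promoter windows of 6 of the 8 members were matched by symbol in RefSeq; Python 3.11.15, pandas 2.3.3 and matplotlib 3.10.9 made tables and plots.

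The members, lists and tests were chosen with earlier results of these data known. Named genes were the 8 members, pathway genes that passed plus the SAP relatives and Fyn, locus neighbours that passed or lay nearest, and the 3 genes with the nearest pattern to each called member and Slamf6; other genes were named after their values were seen. Filters, probe set summaries, scaling, variance moderation, a replicate term and leaving out each array were tried as alternatives.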

Additional observations from a re-analysis of the deposited data

How the results depend on the processing

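With 2 arrays per genotype, the results depend on single arrays. The falls of Slamf7 and Cd244a kept their call in all 13 alternatives, and every member kept its direction in all 13 apart from Slamf1, which was at 0.0035 without WT replicate 2 (range -0.26 to 0.0035 when 1 array was left out). Slamf6 passed limma's test with the filter at the 60th percentile (0.73, adjusted p = 0.0413), the mean of its probe sets (0.79, adjusted p = 0.0190), every probe set tested (0.73, adjusted p = 0.0493), quantile normalization repeated (0.79, adjusted p = 0.0373), a variance trend (0.73, adjusted p = 0.0440), trend with robust moderation (0.73, adjusted p = 0.0381) and the replicate block (0.73, adjusted p = 0.0188), so that 1 member was called higher in each of these; the cause was not tested.

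The count over all genes, 265 in the main analysis, was 413 (167 higher) with every probe set tested, where 14351 features entered, and 166 to 221 when 1 array was left out (52 to 74 higher, 101 to 147 lower). With the replicate number as a block it was 674 (252 higher, 422 lower), and 2 pathway genes passed, Malt1 (-0.72, adjusted p = 0.0303) and Cd1d1 (0.54, adjusted p = 0.0492). Deviations of same-numbered arrays correlated at 0.26 across genes, but the labels do not say that a number marks a shared batch or day, so the arrays share only a number. Leaving out 1 array gave 0 to 1 pathway calls and 0 to 1 neighbour calls, and the neighbour count was 0 with no filter, with the filter at the 60th percentile (which removed Vangl2) and with quantile normalization repeated.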
